A study of Rattus norvegicus with 6 samples.

Results

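Carboxylesterases of rat liver were followed in 6 one-colour Agilent arrays, 3 from rats given vehicle and 3 from rats dosed with 1000 mg/kg/day of tert-butyl alcohol (tBA), an industrial solvent. The genes were 8 fixed by name, Ces1c, Ces1d, Ces1e, Ces1f, Ces2a, Ces2c, Ces2e and Ces2h, and a probe was assigned to one of them when its accession was listed for that gene in the RefSeq table of the rat assembly GRCr8. In this way 13 of 61657 probes stood for 7 of the 8 genes, out of 15284 genes with a probe. Ces2a, which the table lists as a transcribed pseudogene, had no probe under an accession that the table lists for it and was not analysed here. The array does hold a probe under another accession, absent from the table, that was left unmatched. Whether that probe measures Ces2a was not tested. All animals were male Sprague-Dawley rats, 5 weeks old when bought, with no transgene or deletion in either group. Vehicle and duration are uncertain: the vehicle is purified water in the sample labels but corn oil in the treatment protocol, and dosing lasted 28 days by the series text but 9 weeks by that protocol.

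Carboxylesterases are serine hydrolases of the endoplasmic reticulum, most abundant in hepatocytes, that cleave ester, amide and carbamate bonds. They activate or inactivate drugs and pesticides and also hydrolyse cellular lipids. The CES1 subfamily tends to prefer substrates with a small alcohol group and a bulky acyl group, and the CES2 subfamily the reverse. Rodents carry more copies of these genes than humans, many of them in tandem arrays: in the RefSeq table Ces1f, Ces1e, Ces1d, Ces1c and Ces1a follow one another on chromosome 19, Ces2a and Ces2e are neighbours on the same chromosome, Ces2h lies beside Ces3a there, and Ces2c lies on chromosome 1 between the pseudogenes Ces2c-ps1 and Ces2e-ps1.

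The 250 bases before the annotated start of 4 of the genes are shown because they show how much these copies share upstream of the transcripts measured below. Ces2c and Ces1d had the largest differences with non-overlapping groups, Ces1c is the neighbour of Ces1d, and Ces2e had the widest spread between arrays. The sequences are those of RefSeq on GRCr8, on the plus strand, at chr1:270376951-270377200 for Ces2c, chr19:163649-163898 for Ces2e, chr19:30046244-30046493 for Ces1d and chr19:30099197-30099446 for Ces1c. Capitals mark matches to the motifs searched.
Ces2c: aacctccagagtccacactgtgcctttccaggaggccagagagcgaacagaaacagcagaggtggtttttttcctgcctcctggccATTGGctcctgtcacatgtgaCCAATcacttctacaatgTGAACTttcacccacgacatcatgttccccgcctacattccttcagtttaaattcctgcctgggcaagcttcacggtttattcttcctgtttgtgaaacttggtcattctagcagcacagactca
Ces2e: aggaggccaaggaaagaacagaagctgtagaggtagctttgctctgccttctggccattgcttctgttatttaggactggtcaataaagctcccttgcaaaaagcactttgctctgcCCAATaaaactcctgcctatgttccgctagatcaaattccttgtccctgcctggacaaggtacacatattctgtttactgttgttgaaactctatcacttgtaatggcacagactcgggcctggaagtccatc
Ces1d: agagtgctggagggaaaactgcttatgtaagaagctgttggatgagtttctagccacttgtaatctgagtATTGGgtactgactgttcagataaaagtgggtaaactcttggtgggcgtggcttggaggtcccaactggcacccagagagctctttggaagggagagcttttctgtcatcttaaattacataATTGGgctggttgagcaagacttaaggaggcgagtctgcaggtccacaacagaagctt
Ces1c: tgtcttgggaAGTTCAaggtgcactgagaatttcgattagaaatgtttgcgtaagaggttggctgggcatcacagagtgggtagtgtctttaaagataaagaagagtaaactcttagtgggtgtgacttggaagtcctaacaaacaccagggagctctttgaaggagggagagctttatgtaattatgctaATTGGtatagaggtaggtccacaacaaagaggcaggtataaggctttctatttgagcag

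Aligned to each other, the Ces1c and Ces1d windows were identical at 149 of 195 aligned bases (76.4%) and those of Ces2c and Ces2e at 153 of 218 (70.2%). Within CES1 the window of Ces1f was identical to that of Ces1d at 130 of 204 aligned bases (63.7%). The motifs searched, on both strands, were AGGTCA and AGTTCA, half-sites of nuclear receptors, CAAAGTCCA, an HNF4 site, TATAAA and CCAAT. Among 33465 RefSeq promoter windows of this length they occurred in 14.1%, 12.2%, 0.338%, 12.9% and 34.0%, in that order. In the windows of the 7 genes with a probe, CCAAT occurred in 5 and AGTTCA in 2, Ces1c and Ces2c, while AGGTCA, CAAAGTCCA and TATAAA occurred in 0. No match overlapped another. Ces2c held the AGTTCA match on the minus strand, from 125 to 120 bases before the start, and CCAAT on the minus strand from 164 to 160 and on the plus strand from 143 to 139 bases before it.

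Levels are log2 of the processed signal minus the array's 75th percentile, so 0 is that percentile, and levels of different probes are not comparable with each other. All 13 probes were well above background on all 6 arrays, and no spot was saturated. The hepatocyte markers fixed for this work (Alb, Ttr, Apoa1, Tf, Serpina1, Fgb, Apob and Cps1) were likewise detected in all, 8 of 8, and the log2 of their summed level ran from 12.15 to 12.26 in vehicle and from 12.16 to 12.23 in tBA. Each group rests on 3 animals, and 3 arrays limit the precision of every value. Slide was read from the barcode in each array's deposited name, since the sample labels state none. Only slide 1 carried both groups, namely tBA replicate 1 beside all vehicle arrays. A comparison within a slide thus sets 1 tBA array against 3 vehicle arrays. Slide 2 held tBA replicates 2 and 3 and no vehicle array, so for these arrays dose and slide cannot be told apart.

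The comparison of tBA with vehicle asked how far each carboxylesterase transcript differed after repeated dosing. Of the 7 genes, each read from its brightest probe, 6 were higher with tBA, as were 50.4% of all genes, and 1 was lower, with a median log2 difference of 0.40 against 0.0019 over all 11094 genes tested. In 5 genes, Ces1c, Ces1d, Ces1e, Ces2c and Ces2h, the 3 tBA values all lay above the 3 vehicle values. Across all genes 12.8% had non-overlapping groups with tBA higher. Limma called 0 of the 7 genes at an adjusted p of 0.05, where it called 0.0541% of all genes and 0.112% of all probes, and 4 of the 7, Ces1c, Ces1d, Ces2c and Ces2h, had an unadjusted p under 0.05 with tBA higher, against 7.58% of all genes. The exact permutation test of 3 arrays against 3 cannot go below p = 0.1, so it could pass no single gene.

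**Figure D1:**
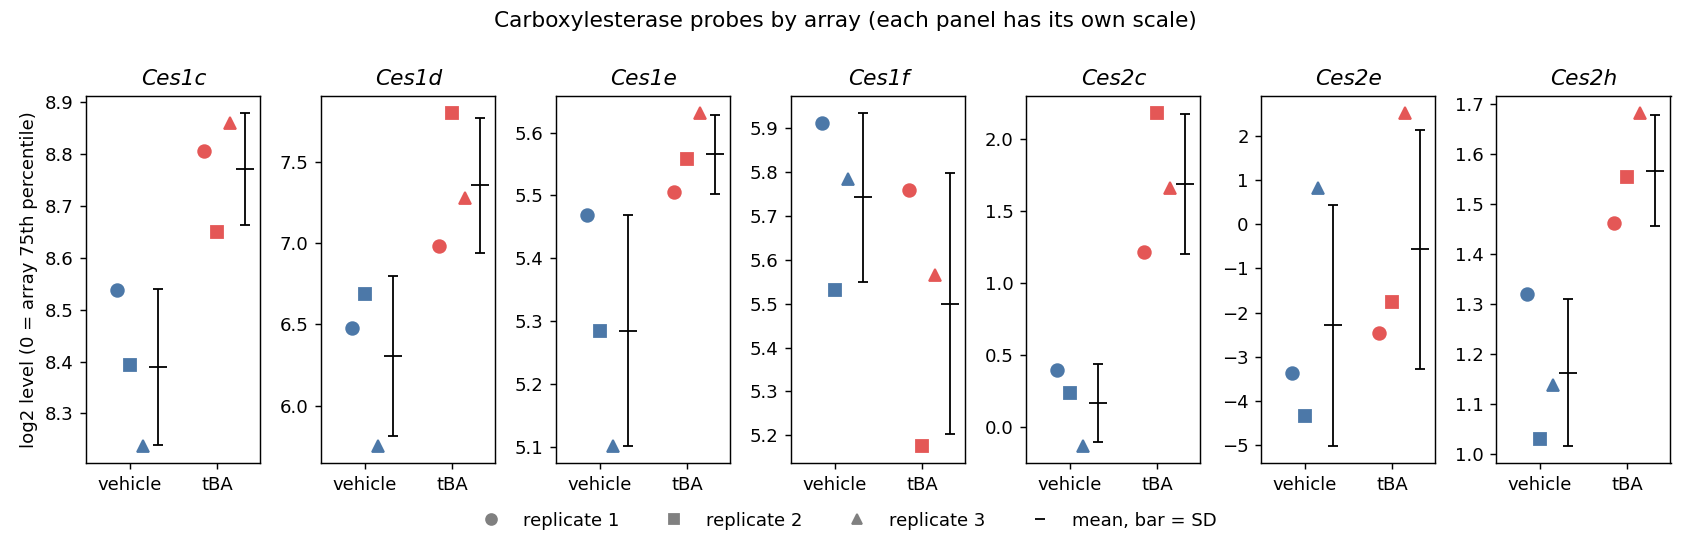
Log2 level, with 0 at the array's 75th percentile, of the brightest probe of each of 7 carboxylesterase genes in the 3 vehicle (blue) and 3 tBA (red) arrays; marker shape gives the replicate, and the black dash and bar give mean and SD. The tBA points lie above all vehicle points for Ces1c, Ces1d, Ces1e, Ces2c and Ces2h, and overlap them for Ces1f and Ces2e.

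Ces2c encodes a microsomal carboxylesterase described in rat as a hydrolase of long-chain acylcarnitines, and it had the widest gap between the groups of the 7 genes. Its level was 0.39, 0.24 and -0.13 on vehicle replicates 1 to 3 and 1.22, 2.18 and 1.66 on tBA replicates 1 to 3. Every tBA array was above every vehicle array, and tBA replicate 2 was the highest of all. The difference was 1.52 on the log2 scale (SE 0.27, limma adjusted p = 0.154), a 2.87-fold higher signal with a 95% interval of 1.83 to 4.50. Leaving out each array in turn gave 1.27 to 1.76, with adjusted p of 0.0968 to 0.303, and within slide 1 the difference was 1.05 (adjusted p = 0.493; 0.519 with slide as a fixed block). Only 1 probe measured it, so no other probe could check the value, and the probe sequences were not used, so signal from the nearby pseudogene copies was not tested.

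Ces2h, the CES2 member annotated beside Ces3a, was higher by a smaller amount. On vehicle replicates 1 to 3 it was at 1.32, 1.03 and 1.14, and on tBA replicates 1 to 3 at 1.46, 1.55 and 1.68. The groups did not overlap, though vehicle replicate 1 and tBA replicate 1 were close. The difference was 0.40 (SE 0.11, limma adjusted p = 0.236), or 1.32-fold with a 95% interval of 1.09 to 1.60, and 0.30 within slide 1. Only 1 probe measured Ces2h, so no other probe could check the value.

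Ces2e, a carboxylesterase of the rodent intestine and liver, varied far more between arrays than between groups. It was at -3.36, -4.33 and 0.82 on vehicle replicates 1 to 3 and at -2.47, -1.76 and 2.53 on tBA replicates 1 to 3. Replicate 3 of both groups stood apart: the lower of these 2 arrays was 5.97-fold above the highest of the other 4, and the whole range was 116-fold. Only 1 probe measured Ces2e, so no other probe could check these values. Its processed signal ran from 31.3 to 3295, so the range depends on dim spots. The group means ± SD were -2.29 ± 2.74 and -0.57 ± 2.70 (n = 3 each), and the difference of 1.73 (SE 1.78, limma adjusted p = 0.646) had a 95% interval of -2.59 to 6.04, so the interval covers differences in both directions. This difference was 3.28 without vehicle replicate 3, 0.18 without tBA replicate 3 and -0.18 within slide 1 or with slide as a fixed block. With another background correction (normexp) it was 1.05. Of 37647 tested probes, 10 had a larger residual SD. Of 10692 genes detected on all arrays, Ces2e was the 1 gene in which both replicate 3 arrays exceeded each of the other 4 by more than 1 on the log2 scale, a criterion chosen after its values were seen. The 2 arrays were on different slides.

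Markers of tissues that could be admixed gave these values beside Ces2e. Among the intestinal markers Vil1 was well above background on 0 of 6 arrays, while Fabp2, a fatty acid binding protein of enterocytes, was at 1.55, 0.078 and 0.70 on vehicle replicates 1 to 3 and at -0.31, 0.54 and 0.44 on tBA replicates 1 to 3, so neither replicate 3 array was its highest. The log2 of the summed level of the 2 intestinal markers tested, of 5 listed, ran from 0.12 to 1.57 in vehicle and from -0.19 to 0.58 in tBA. In the pancreatic list the digestive enzymes Prss1, Cela1 and Pnlip were not well above background on any array. Cpa1 was well above background on 1 array. Its highest level was -4.49 on vehicle replicate 3, and the other arrays were between -7.66 and -5.82. Cel was between -3.50 and -3.09 on all arrays. Cpb1, a pancreatic carboxypeptidase, was at 0.58 on tBA replicate 3 and between -2.00 and -1.09 on the other arrays. The log2 summed level of the 2 pancreatic markers tested, of 6 listed, ran from -1.03 to -0.83 in vehicle and from -1.45 to 0.68 in tBA. The part of the pancreatic signal in Ces2e was not tested.

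Ces1d is a triacylglycerol hydrolase that in rodents mobilises stored lipid for lipoprotein assembly, and it had the largest difference of the 4 listed CES1 genes. Its brightest probe was at 6.48, 6.69 and 5.75 on vehicle replicates 1 to 3 and at 6.98, 7.80 and 7.28 on tBA replicates 1 to 3. Vehicle replicate 3 was the lowest array and tBA replicate 2 the highest, and the groups did not overlap. The difference was 1.05 (SE 0.31, limma adjusted p = 0.244), a 2.07-fold higher signal with a 95% interval of 1.24 to 3.47. A separate probe of Ces1d gave 1.07 (SE 0.30, adjusted p = 0.236) with the same order of arrays. Within slide 1 the difference was 0.68 (adjusted p = 0.706), and leaving out each array gave 0.77 to 1.24.

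Ces1c, known in rodents as an esterase secreted into plasma, was higher by 0.38 (SE 0.11, limma adjusted p = 0.249), or 1.30-fold with a 95% interval of 1.08 to 1.58. Its brightest probe was at 8.54, 8.39 and 8.24 on vehicle replicates 1 to 3 and at 8.81, 8.65 and 8.86 on tBA replicates 1 to 3. The groups did not overlap on this probe. The other Ces1c probes gave 0.36 and 0.34, and on the dimmest of the 3 the groups overlapped. Within slide 1 the difference was 0.42.

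Ces1e encodes egasyn, which holds the glycosidase beta-glucuronidase in the endoplasmic reticulum. It was at 5.47, 5.28 and 5.10 on vehicle replicates 1 to 3 and at 5.51, 5.56 and 5.63 on tBA replicates 1 to 3, groups that were adjacent without overlap. The difference was 0.28 (SE 0.12, limma adjusted p = 0.320), with a 95% interval of -0.0042 to 0.57, and the other 2 probes gave 0.20 and 0.16 with overlapping groups. Gusb, the gene of beta-glucuronidase, was at -0.060 (SE 0.081, adjusted p = 0.730), with a 95% interval of -0.26 to 0.14.

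Ces1f, a microsomal carboxylesterase and the first gene of the CES1 array, was the 1 member on the lower side. Its values were 5.91, 5.53 and 5.79 on vehicle replicates 1 to 3 and 5.76, 5.17 and 5.56 on tBA replicates 1 to 3. The groups overlapped. The difference was -0.24 (SE 0.18, limma adjusted p = 0.524), with a 95% interval of -0.68 to 0.20, and its other probe gave -0.18. Within slide 1 it was 0.018, and leaving out each array gave -0.37, without tBA replicate 1, to -0.080, without tBA replicate 2.

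**Figure D2:**
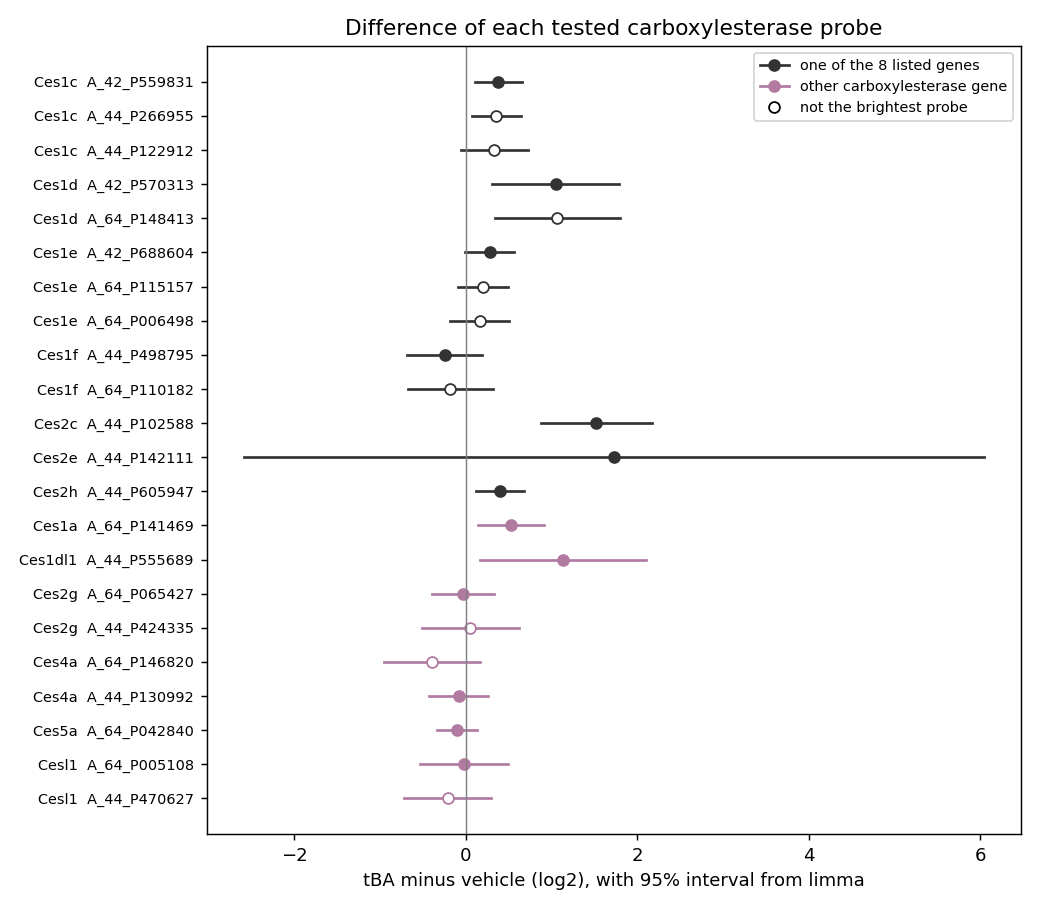
Log2 difference, tBA minus vehicle, with the 95% interval from limma, for the 13 probes of the 7 genes (black) and the 9 tested probes of 6 other carboxylesterase genes (purple); open points are probes that are not the gene's brightest. Probes of a gene lie on the same side of 0 for Ces1c, Ces1d, Ces1e and Ces1f, and the interval of Ces2e runs from -2.59 to 6.04.

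Other carboxylesterase genes on the array, all those whose symbol begins with Ces, were read in the same way. Of 7 such genes, 6 had a tested probe, and of these 2 were higher and 4 lower with tBA (50.4% of all genes were higher), with a median of -0.024; limma called 0 of 6, and 2, Ces1a and Ces1dl1, had an unadjusted p under 0.05, against 15.1% of all genes. Ces1a, next to Ces1c, was at 0.53 (SE 0.16, adjusted p = 0.248). Ces1dl1, a gene annotated as like Ces1d, was at 0.98, 1.12 and 0.026 on vehicle replicates 1 to 3 and at 1.36, 2.53 and 1.65 on tBA replicates 1 to 3, a difference of 1.14 (SE 0.40, adjusted p = 0.280). On their brightest probes Cesl1, Ces2g, Ces4a and Ces5a were between -0.098 and -0.016. Other tested probes gave -0.39 for Ces4a, -0.21 for Cesl1 and 0.057 for Ces2g, so the probes of Ces2g differed in direction. Ces2b had 1 probe, which stayed at background on all 6 arrays.

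Patterns over the 6 arrays were compared by the root mean square difference of log2 levels, each gene centred on its own mean, with 10687 other genes, detected on all arrays without a missing value, set against each. Ces1dl1 was the nearest gene of all to Ces1d, at 0.14. Signal shared between these copies could not be told apart, since probe sequences were not used here. Ces1c and Ces1e were nearest to each other among the members, at 0.081, with 11 genes closer to Ces1c and 61 closer to Ces1e. Ces2h was nearest to Ces1c, at 0.11, with 80 genes closer. Ces2c and Ces1d were nearest to each other among the members, at 0.29, with vehicle replicate 3 lowest and tBA replicate 2 highest in both. Ces1f was nearest to Ces1e among the members at 0.34, more than its own spread of 0.24, with 7532 genes closer. Outside the members, Ces2g and Cesl1 were closer to Ces1f, each at 0.15, as were Ces4a at 0.20 and Ces5a at 0.28. Among the members Ces2e was nearest to Ces2h at 2.28, close to its own spread of 2.38, with 856 genes closer.

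The 5 genes closest to Ces2c over all genes were Npas2, a transcriptional activator of the circadian clock, at 0.19, Spmip11 at 0.25, Cyp2b2, a phenobarbital-inducible cytochrome P450, at 0.26, Dio3, an enzyme that inactivates thyroid hormone, at 0.28 and Oprm1, an opioid receptor, at 0.29. Their differences, which follow from their being chosen for likeness to Ces2c on the same arrays, were 1.36, 1.23, 1.27, 1.13 and 1.34.

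**Figure D3:**
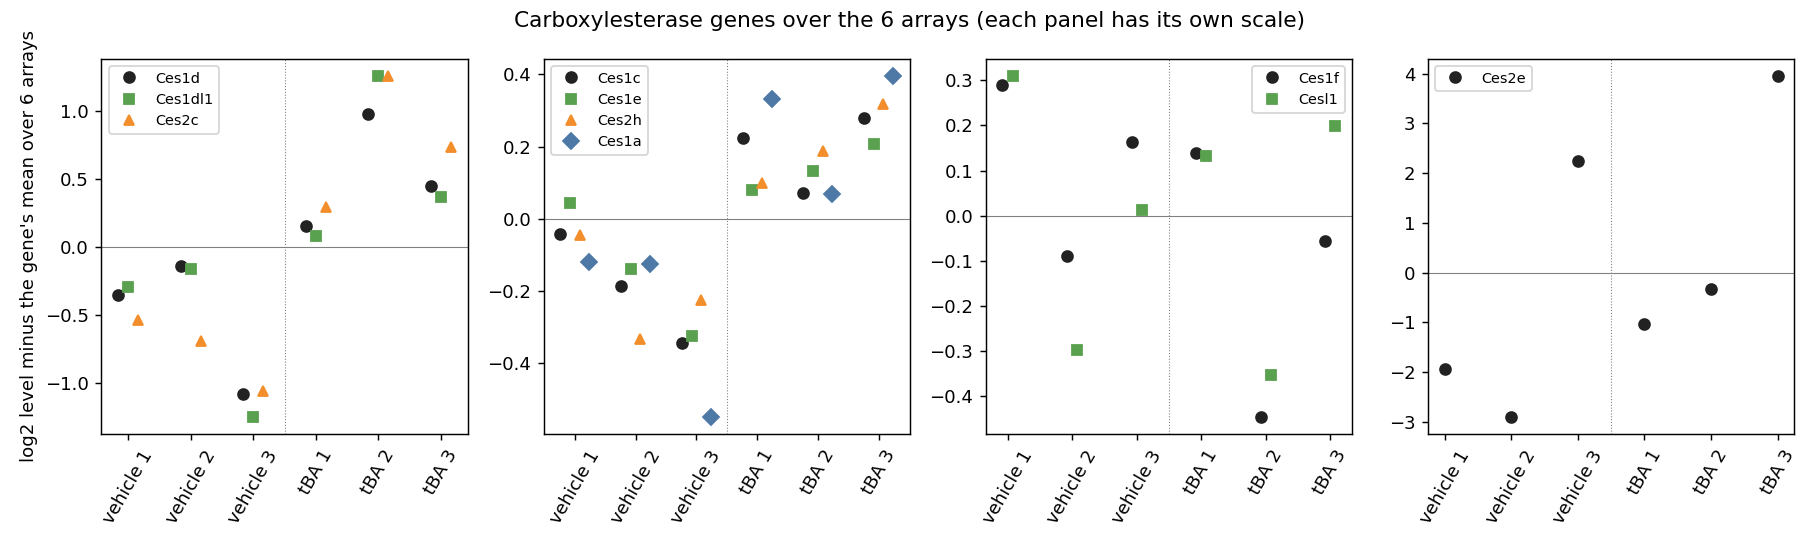
Log2 level minus the gene's own mean over the 6 arrays, by array, for carboxylesterase genes put in panels after their values were seen; each panel has its own scale, and points of an array are shifted sideways only for legibility. Ces1d, Ces1dl1 and Ces2c share their lowest array (vehicle 3) and their highest (tBA 2), while Ces2e is highest on replicate 3 of each group.

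Genes that work beside the carboxylesterases were taken from fixed lists. Among 18 tested enzymes of ester and drug hydrolysis outside the 8 genes, 10 were higher with a median of 0.025 over the list, and 8 were lower. Limma called 0 of 18, and 5 had an unadjusted p under 0.05, 4 of them higher, where 15.1% of all genes did. The 18 hold the carboxylesterases Ces1a, Ces4a and Ces5a already counted above, and Ces1a is among the 4. Esd, which hydrolyses S-formylglutathione, was at 0.31 (SE 0.082, adjusted p = 0.217) and Cmbl, a cytosolic hydrolase of ester prodrugs, at 0.31 (SE 0.097, adjusted p = 0.256). Siae, a sialic acid esterase, was at -0.34 (SE 0.091, adjusted p = 0.224), with 3 of 3 probes lower.

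Neutral lipid hydrolases, which share substrates with Ces1d, had 5 of 11 higher, against 50.4% of all genes, and a median of -0.0032. Limma called 0, and 2 had an unadjusted p under 0.05, both higher, against 7.58% of all genes. Pnpla2, the adipose triglyceride lipase, was at 1.54, 1.78 and 1.35 on vehicle replicates 1 to 3 and at 2.12, 2.92 and 2.38 on tBA replicates 1 to 3. The tBA arrays were all higher, by 0.92 (SE 0.23, adjusted p = 0.213). Lipe, the hormone-sensitive lipase, was at 0.41 (SE 0.16, adjusted p = 0.299), with 4 of 4 probes higher. Mgll and Abhd12, which hydrolyse monoacylglycerols, were at -0.41 and -0.13 with overlapping groups. The adipocyte markers Adipoq and Lep were well above background on 0 of 6 arrays, and the log2 summed level of the 2 adipocyte markers tested, of 5 listed, ran from 4.07 to 4.28 in vehicle and from 4.24 to 4.39 in tBA; their part in the lipase values was not tested.

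Regulators of carboxylesterase genes were split in direction. Of 11 tested genes in this list, which also held Gusb and Por, the median was 0.096, with 6 higher and 5 lower. Limma called 0, and 3 higher, Por among them, and 2 lower had an unadjusted p under 0.05, against 7.58% and 7.48% of all genes. The xenobiotic receptor Nr1i3 (CAR) was at 3.19, 2.56 and 1.88 on vehicle replicates 1 to 3 and at 3.33, 3.44 and 3.51 on tBA replicates 1 to 3. Its vehicle arrays were spread widely and lay below the tBA arrays, with a difference of 0.89 (SE 0.31, adjusted p = 0.282) and 4 of 4 probes higher. Nr1i2 (PXR) was at 0.27 (SE 0.097, adjusted p = 0.286). Por, which passes electrons to cytochromes P450, was at 0.43 (SE 0.14, adjusted p = 0.269). It is counted again below among the genes that respond to CAR and PXR. The glucocorticoid receptor Nr3c1 was at -0.32 (SE 0.076, adjusted p = 0.204) and the hepatocyte transcription factor Cebpa at -0.57 (SE 0.14, adjusted p = 0.216), each lower on all tBA arrays. The 3 tested probes of Nr3c1 ran from -0.32 to -0.021 and the 2 of Cebpa from -0.62 to -0.57.

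Genes that respond to CAR and PXR, to which Ces2c is often counted, had 14 of 18 higher, against 50.4% of all genes, and a median of 0.55. Limma called 0, and 8 had an unadjusted p under 0.05, all higher, against 7.58% of all genes. Abcc3, an exporter of conjugates, was at 1.94 (SE 0.25, adjusted p = 0.0853), Cyp2b1 at 0.90, Ugt1a1 at 0.79 and Cyp3a23-3a1 at 0.66. On the log2 scale the Ces2c difference of 1.52 lay between those of Abcc3 and Cyp2b1, and Cyp2b2, of the same list, was at 1.27. Near-identical copies make the values of Cyp2b1, Cyp2b2 and Ugt1a1, which shares exons with other Ugt1a genes, uncertain.

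Markers of other liver cells were measured beside these genes. With tBA, 1 of 6 macrophage, 0 of 6 stellate, 0 of 4 T and B cell, 3 of 3 endothelial and 3 of 5 bile duct markers tested were higher. The log2 summed level ran from 6.50 to 6.79 in vehicle and from 6.50 to 6.59 in tBA for macrophage markers, from 4.64 to 4.95 and from 4.34 to 4.74 for stellate markers, from -0.32 to 0.65 and from -0.90 to -0.012 for T and B cell markers, from 0.81 to 0.99 and from 0.58 to 1.24 for bile duct markers, and from 5.42 to 5.59 and from 5.65 to 5.72 for endothelial markers. Their part in the carboxylesterase values was not tested. In whole liver, a change in the share of hepatocytes and a change in RNA per hepatocyte cannot be told apart.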

How the data were processed

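The deposited files hold 1 spot intensity per probe and array. Per the file headers the authors subtracted background with Feature Extraction 10.7.1.1 of Agilent (10.7 in the submitters' processing notes) and the array annotation is rn4. The deposited series table is a linear ratio, the processed signal divided by 1 number per array (570.0 to 639.5), with column medians of 0.0949 to 0.102 and no centring per gene. Other deposited marks per spot gave detection and outliers.

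Here log2 processed signal minus the array's 75th percentile over 61657 probes was fitted with limma 3.58.1 in R 4.3.3 (lmFit, eBayes). Control spots and 3 to 16 outlier spots per array were left out. The 37647 probes tested were those well above background on every array of either group; p-values were Benjamini-Hochberg adjusted over all of them. A gene took its probe with the highest mean signal. Between 61.5% and 66.9% of probes were well above background per array. Coordinates of probes were not used, since rn4 and GRCr8 differ. Promoter windows were aligned with Biopython 1.88, end to end with free end gaps, and identity was counted over aligned bases. All members were named, and up to 4 genes of each list by smallest p, with Gusb, Nr1i2 and Nr1i3 always; other genes were named for likeness. Members and lists were chosen with earlier results of these data known, so no p was adjusted over a list. Alternatives were other background corrections, scalings, filters and variance models, slide and replicate blocks, and leaving out each array.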

Additional observations from a re-analysis of the deposited data

How the results depend on the processing

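Across 20 alternatives, limma called 0 of the 7 genes at an adjusted p of 0.05 in each, and the directions of Ces1c, Ces1d, Ces1e, Ces2c and Ces2h were kept. The count at an unadjusted p under 0.05 was 4 or 5 in 18 alternatives, 4 to 5 when leaving out each array, and 1 both within slide 1 and with slide as a fixed block. In these settings the contrast rests on tBA replicate 1 alone, because the other tBA arrays are left out or absorbed by the slide term. The lower count thus cannot tell a difference between slides from the loss of arrays. In the same settings Ces1f reversed to 0.018 and Ces2e to -0.18. Normexp, run on the median spot signal, gave the smallest adjusted p of Ces2c, 0.0866. No pairing of animals by replicate number is stated. Deviations from the group means correlated at -0.063, -0.063 and 0.016 for same-numbered arrays, and at -0.063 to 0.12 for differently numbered ones. These values cannot settle whether the animals were paired. With the replicate block, 6 probes in place of 42 passed, 0 carboxylesterase genes passed and 5 had an unadjusted p under 0.05, Ces2e among them (SE 0.34, adjusted p = 0.306). Over all probes, 0 passed within slide 1, with 2956 at an unadjusted p under 0.05, 0 with the filter to all 6 arrays, with 5634, 18 with no filter, 20 with the slide block, 64 with 1 floor, 68 with the intensity trend, and 6 to 45 when leaving out each array: 14 or fewer when the array left out was tBA replicate 2 (6) or 3 (14), and 22 and 25 when it was vehicle replicate 1 or 3.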

Other observations

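The same measure of likeness was applied to Ces2e, a choice made after its values were seen. The nearest were Esm1, an endothelial proteoglycan, at a root mean square difference of 1.42, Slc35c2 at 1.54, Osgin1 at 1.70, Hamp, the iron hormone hepcidin, at 1.71 and Cyp4f5 at 1.75, against a spread of Ces2e itself of 2.38. Hamp was at 5.80, 4.86 and 7.23 on vehicle replicates 1 to 3 and at 7.96, 7.98 and 8.40 on tBA replicates 1 to 3. In all 5 genes replicate 3 was the highest array of each group, which follows from their being chosen for likeness to Ces2e on the same arrays.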
